A study of Bombyx mori with 12 samples.

Results

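The insulin receptor gene InR (gene ID 692560) and the adipokinetic hormone genes AKH1 (gene ID 100127025) and AKH2 (gene ID 100174839) were followed in the silkworm Bombyx mori. They were taken as the rows of the deposited count table whose gene ID carries the NCBI symbol InR, AKH1 or AKH2, and all 3 were found among its 17583 rows. All 3 passed the filter on low counts and were among the 10721 genes tested. In the RefSeq gene table of assembly ASM3026992v2, AKH1 and AKH2 are neighbours with 0 genes between them. The genome build behind the counts has no name in the labels or files read, so no coordinates are stated.

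Insulin signalling in insects couples nutrition to growth. Insulin-like peptides, called bombyxins in the silkworm and made mainly in brain neurosecretory cells, bind the insulin receptor, a tyrosine kinase at the cell surface. The receptor acts through PI3 kinase and Akt, which hold back the transcription factor FoxO and lead through Rheb to the TOR kinase and S6 kinase. In Drosophila, FoxO raises transcription of the insulin receptor gene when nutrients are short. Adipokinetic hormone is the opposing signal: a short peptide of the corpora cardiaca, endocrine glands behind the brain, that acts on a receptor of the fat body and mobilises stored lipid and sugar, much as glucagon does in mammals. Larval growth and the release of molting hormones are both linked to nutrition.

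Poly(A) RNA was sequenced from pooled head and thorax tissue of the strain Guangri 3 (spelled Gurangri 3 in the labels) at the molting stage of the third instar. Trimolters spin after the third molt and tetramolters molt once more. There were 4 groups of 3 libraries: batch 2 tetramolters, batch 2 trimolters, batch 1 tetramolters and batch 1 trimolters. The study reared larvae in spring at 25 °C from diapause eggs and in autumn at 30 ± 2 °C, all on mulberry leaf. No label states the season of a batch. If the batches differ in season, batch cannot be told apart from season, with its temperature and day length. Per the design text 3 silkworms of each molting type were collected in each season, from larvae reared singly, but which animal gave which library is not labelled, so the p-values measure the spread between these libraries, which may be technical in part.

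Libraries held 13449541 to 15650612 counts. Levels are given as CPM (counts scaled to a common library size) after TMM scaling, with SD over 3 libraries, and differences as log2 fold changes of edgeR with their standard error (SE) and a p-value adjusted over all tested genes, called when under 0.05. The tissue labels were checked against fixed markers. All 6 nervous system markers were detected, with a summed level of 55.3 to 66.5 CPM in batch 2 tetramolters, 63.2 to 94.6 CPM in batch 2 trimolters, 70.4 to 74.2 CPM in batch 1 tetramolters and 57.6 to 85.9 CPM in batch 1 trimolters. The 4 midgut markers were present as well, with a summed level that differed between groups. It was 3554 to 4579 CPM in batch 2 tetramolters and 2718 to 3132 CPM in batch 2 trimolters. In batch 1 it was 1499 to 1734 CPM in tetramolters and 1457 to 4231 CPM in trimolters. The 2 haemocyte markers summed to 2009 to 2428 CPM in batch 2 tetramolters and 3316 to 4103 CPM in batch 2 trimolters. In batch 1 they summed to 1355 to 1470 CPM in tetramolters and 443 to 2205 CPM in trimolters. The 4 fat body markers, with VG at 0 in every library, summed to 8.81 to 62.1 CPM in batch 2 tetramolters and 4.42 to 14.2 CPM in batch 2 trimolters. In batch 1 the fat body sum was 2.46 to 4.24 CPM in tetramolters and 3.78 to 39.1 CPM in trimolters. The 6 silk gland markers summed to 0.123 to 1.71 CPM, with FIBH at 0 in every library. The batch 1 trimolters varied most: their log2 CPM correlated at 0.9365 to 0.967 between replicates, against 0.9779 to 0.9911 in the other groups.

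InR was lower in tetramolters than in trimolters in batch 2 and higher in batch 1. In batch 2 its level was 44.8, 45.5 and 39.3 CPM in the tetramolters, against 165, 131 and 154 CPM in the trimolters. In batch 1 it was 239, 245 and 240 CPM in the tetramolters, against 125, 130 and 64.8 CPM in the trimolters. The tetramolters of batch 2 were thus the lowest of all libraries and those of batch 1 the highest, with neither range overlapping that of any other group. Ranges of tetramolters and trimolters were apart for 55.6% of tested genes in batch 2 and 53.7% in batch 1, and those of both tetramolter groups for 71.5%. Replicates were close in both tetramolter groups, and batch 1 trimolter 3 was the lowest of the 6 trimolter libraries.

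**Figure D1:**
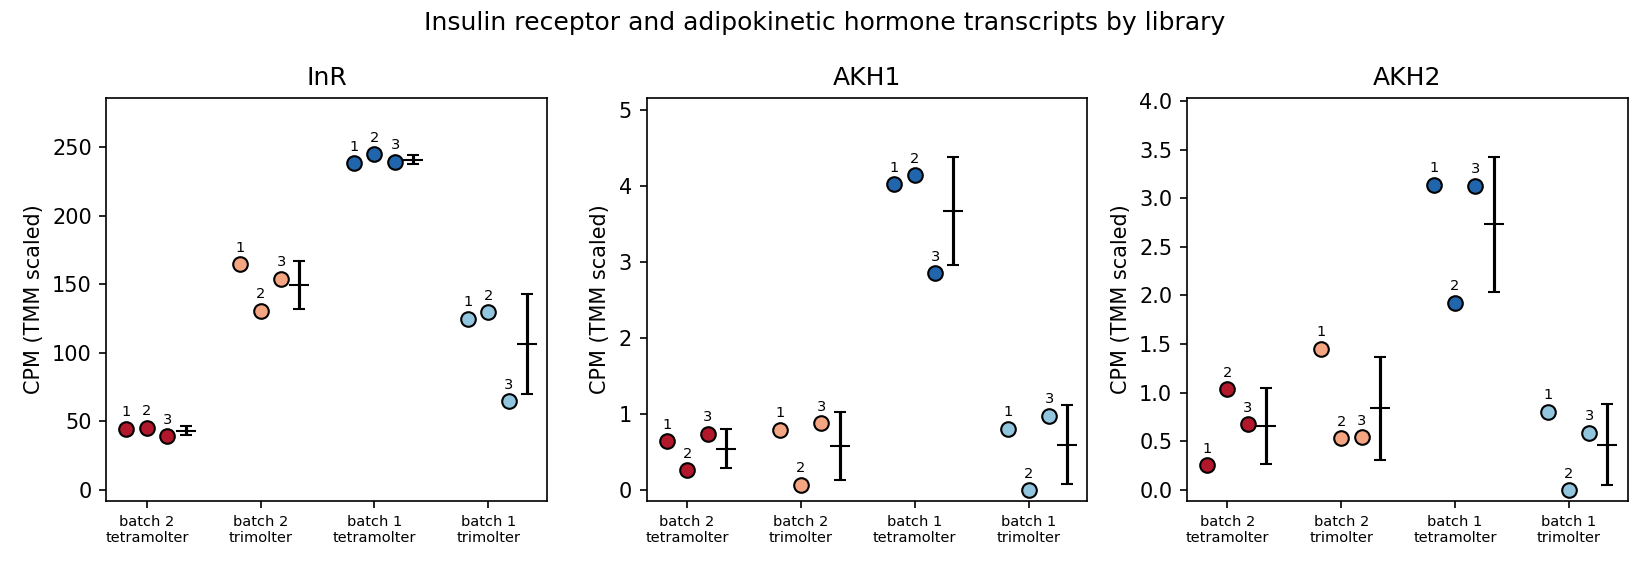
Level in CPM (vertical axes, linear) of InR, AKH1 and AKH2 in each of the 12 libraries, numbered by replicate and grouped by batch and molting type, with bars for the mean and SD of 3 libraries. InR lies at 39.3 to 45.5 CPM in batch 2 tetramolters and at 239 to 245 CPM in batch 1 tetramolters, and both AKH genes are highest in batch 1 tetramolters.

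The fall of InR in batch 2 tetramolters was 1.79 on the log2 scale (log2 fold change -1.79, SE 0.21, edgeR adjusted p = 0.000162), or 3.47-fold. The rise in batch 1 tetramolters was 1.18 (SE 0.21, edgeR adjusted p = 0.00108), or 2.26-fold. Calls were common in both comparisons. In batch 2, 18.3% of tested genes were called lower and 38% called in either direction, and in batch 1, 22.7% were called higher and 45.4% called in either direction. Only 212 of 10721 genes had a lower log2 fold change than InR in batch 2, while 895 had a higher one in batch 1. The difference of both changes, batch 2 minus batch 1, was -2.97 (SE 0.30, edgeR adjusted p = 1.69e-05), where 26.9% of tested genes were called negative. Of all tested genes, 9.89% were called lower in batch 2 and higher in batch 1, as InR was. In bulk tissue, fewer cells that express a gene and less RNA per cell cannot be told apart.

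Set against each other across batches, tetramolters of batch 2 had less InR than those of batch 1, with a log2 fold change of -2.48 (SE 0.21, edgeR adjusted p = 5.57e-06; 29.7% of tested genes were called lower). Trimolters of batch 2 averaged 150 ± 17.4 CPM and those of batch 1 107 ± 36.3 CPM. Their ranges did not overlap, which held for 31.1% of tested genes, but the difference did not pass (0.49, 95% confidence interval 0.03 to 0.95 before adjustment, edgeR adjusted p = 0.13, with 15.5% of tested genes called). It passed without batch 1 trimolter 2 (0.66, edgeR adjusted p = 0.0474). From high to low, the order was batch 1 tetramolters, batch 2 trimolters, batch 1 trimolters and batch 2 tetramolters. The middle neighbours are the trimolter pair that did not differ beyond its spread. The outer neighbours differed: batch 2 trimolters were below batch 1 tetramolters by 0.69 on the log2 scale (log2 fold change -0.69, SE 0.21, edgeR adjusted p = 0.032), and batch 2 tetramolters were below batch 1 trimolters (-1.30, SE 0.21, edgeR adjusted p = 0.00175). Of tested genes, 15.1% were called lower in the first of these comparisons and 13.6% in the second, and ranges were apart for 57.7% and 36.1%. Neither comparison was recomputed with a library left out. Averaged over both batches, tetramolters and trimolters did not differ in InR at the threshold (-0.31, SE 0.15, edgeR adjusted p = 0.185, with 15.7% of tested genes called), but the average joins opposite changes. Without batch 1 trimolter 3 it passed, at -0.44 (edgeR adjusted p = 0.00652).

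Per gene length, the deposited FPKM values (fragments per kilobase, scaled to library depth) put InR at 5.09 to 5.87 in batch 2 tetramolters and 16.8 to 21.1 in batch 2 trimolters. In batch 1 they were 29.5 to 30.4 in tetramolters, and 15.8 and 8.22 in trimolters 1 and 3, the FPKM column of trimolter 2 being empty. InR thus lay above 41.3% to 44.7% of tested genes in batch 2 tetramolters, above 72% to 76.9% in batch 2 trimolters and above 82.4% to 83% in batch 1 tetramolters. Muscle markers moved in the same direction as InR, 3 of 4 called lower in batch 2 tetramolters (18.3% of tested genes) and 4 of 4 called higher in batch 1 tetramolters (22.7% of tested genes). The 4 of them summed to 2857 to 3530 CPM in batch 2 tetramolters and 4626 to 6070 CPM in batch 2 trimolters, and to 9703 to 10829 CPM in batch 1 tetramolters and 2644 to 5992 CPM in batch 1 trimolters. Not all fixed markers moved so. Of 4 midgut markers, 2 were called higher in batch 2 tetramolters (19.7% of tested genes) and 2 lower in batch 1 tetramolters (22.7% of tested genes). Of 6 nervous system markers, 2 were called higher and 1 lower in batch 2, and 1 higher and 1 lower in batch 1. The 2 trachea markers were both called lower in batch 1 and not called in batch 2. The part of any marker set in the InR values was not tested.

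AKH1 and AKH2 were rare transcripts that were higher in tetramolters of batch 1, and not detectably different by molting type in batch 2. In batch 2, AKH1 had 10, 4 and 12 counts in tetramolters and 12, 1 and 13 counts in trimolters. In batch 1 it had 59, 58 and 41 counts in tetramolters, against 12, 0 and 15 counts in trimolters. All 3 batch 1 tetramolter libraries lay above the other 9, which overlapped between groups. Such gaps were common, taking 1 pair of groups at a time and either direction. Batch 1 tetramolters were apart from batch 1 trimolters for 53.7% of tested genes, from batch 2 tetramolters for 71.5% and from batch 2 trimolters for 57.7%.

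The counts of AKH2 in batch 2 were 4, 16 and 11 in tetramolters and 22, 8 and 8 in trimolters. In batch 1 they were 46, 27 and 45 in tetramolters, against 12, 0 and 9 in trimolters. Again the batch 1 tetramolters were above all others, although batch 2 trimolter 1 with 22 counts and batch 1 tetramolter 2 with 27 were close, with exact 95% Poisson intervals of 13.8 to 33.3 and 17.8 to 39.3 counts. Such intervals cover counting error only, since reads carried no molecular identifiers. Outside the batch 1 tetramolters, AKH1 reached the filter's level of 0.668 CPM in 5 libraries and AKH2 in 4, so that each had the 3 libraries the filter asks for without that group.

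In CPM, AKH1 averaged 3.67 ± 0.714 in batch 1 tetramolters and 0.595 ± 0.522 in batch 1 trimolters (SD, n = 3 each). The log2 fold change was 2.58 (SE 0.77, edgeR adjusted p = 0.0166), with 22.7% of tested genes called higher. For AKH2 the means were 2.73 ± 0.696 CPM in batch 1 tetramolters and 0.465 ± 0.417 CPM in batch 1 trimolters, with a log2 fold change of 2.51 (SE 0.74, edgeR adjusted p = 0.0149). Only 97 of 10721 tested genes had a higher log2 fold change than AKH1 here, and 110 a higher one than AKH2. The confidence intervals were wide, at 0.90 to 4.26 for AKH1 and 0.89 to 4.12 for AKH2. The call of AKH1 was lost without batch 1 tetramolter 1 or 2 (edgeR adjusted p = 0.0544 and 0.0524), and that of AKH2 without batch 1 tetramolter 1 (edgeR adjusted p = 0.0524).

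Batch 1 trimolter 2 had 0 counts of both AKH genes, which allows up to 0.224 CPM for each (3 counts). Without this library the changes were lower but still passed, at 2.02 for AKH1 and 1.96 for AKH2 (edgeR adjusted p = 0.0186 for both). Some other peptide hormone transcripts were at 0 in the same library. Of 26 genes for AKH, bombyxins and other neuropeptides that reached 10 counts in any library, a count made after the values were seen, 11 were listed at 0 in batch 1 trimolter 2 and 0 to 5 in each of the other libraries. The summed level of its nervous system markers was within the range of the other libraries, although 1 of the 6, nAChRa1 with 3 counts, was lower than in any of them. Not all such genes were low there: Tk had 252 counts, against 34 and 111 in the other batch 1 trimolters, and Ork 395, against 75 and 138. The part of this library's peptide zeros in the AKH values was not tested.

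In batch 2 the change of AKH1 in tetramolters was -0.08 (95% confidence interval -1.97 to 1.82, edgeR adjusted p = 0.954) and that of AKH2 was -0.36 (-1.98 to 1.27, edgeR adjusted p = 0.735). AKH1 averaged 0.546 ± 0.253 CPM in the tetramolters and 0.578 ± 0.446 CPM in the trimolters, and AKH2 0.656 ± 0.391 CPM in the tetramolters and 0.84 ± 0.529 CPM in the trimolters. Both intervals, which reflect low counts and the spread between libraries, include a rise and a fall of 2-fold, so neither could be told from no change.

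The batch 2 tetramolters also had less of both AKH transcripts than the batch 1 tetramolters, by 2.73 on the log2 scale for AKH1 (log2 fold change -2.73, SE 0.77, edgeR adjusted p = 0.00913) and with a log2 fold change of -2.05 for AKH2 (SE 0.69, edgeR adjusted p = 0.0231). That of AKH2 was lost when replicate 1 or 3 of either group was left out, with an edgeR adjusted p between 0.0642 and 0.081. Batch 2 trimolters lay below batch 1 tetramolters too, at -2.65 for AKH1 (SE 0.77, edgeR adjusted p = 0.0243) and -1.69 for AKH2 (SE 0.68, edgeR adjusted p = 0.0819). Of tested genes, 29.7% were called lower between tetramolters and 15.1% in batch 2 trimolters against batch 1 tetramolters. Among the 3 lower groups no pair passed for either gene. Of the comparisons with the top group, the one of AKH2 in batch 2 trimolters did not pass. Those of AKH1 in batch 1 and of AKH2 in batch 1 and between tetramolters depended on single libraries. The comparison of batch 2 trimolters with batch 1 tetramolters was not recomputed with a library left out. Trimolters of batch 2 against those of batch 1 gave -0.07 for AKH1 (-1.96 to 1.82, edgeR adjusted p = 0.964) and 0.82 for AKH2 (-0.90 to 2.54, edgeR adjusted p = 0.492).

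**Figure D2:**
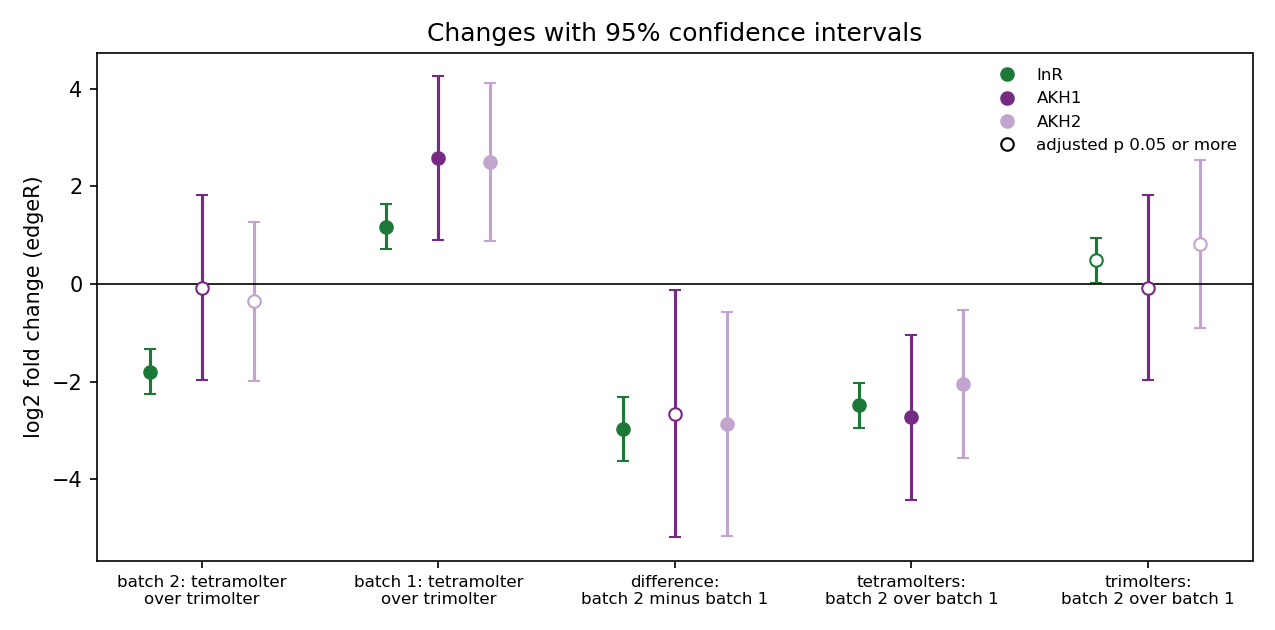
Log2 fold changes of InR, AKH1 and AKH2 (vertical axis) in 5 comparisons (horizontal axis), with 95% confidence intervals, where open points are changes with an edgeR adjusted p of 0.05 or more. InR is called in opposite directions in the 2 batches (-1.79 in batch 2 and 1.18 in batch 1), while the AKH genes are called in batch 1 and have intervals that span 0 in batch 2.

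Tested directly, the change differed between batches for AKH2 (-2.86, SE 1.05, edgeR adjusted p = 0.0346) and not for AKH1 (-2.66, SE 1.16, edgeR adjusted p = 0.0698), with 53.8% of tested genes called in either direction. The call of AKH2 was lost without any 1 of 6 libraries (edgeR adjusted p of up to 0.127), namely batch 1 trimolter 3, batch 1 tetramolter 1 or 3, batch 2 trimolter 1, and batch 2 tetramolter 1 or 3. AKH1 passed without batch 2 trimolter 2, its library of 1 count (edgeR adjusted p = 0.0267). Averaged over both batches neither AKH gene passed, at 1.25 for AKH1 (SE 0.58, edgeR adjusted p = 0.163) and 1.08 for AKH2 (SE 0.52, edgeR adjusted p = 0.182).

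The share of AKH1 in the counts of the pair had overlapping intervals in the 4 groups. AKH1 made up 45.6% of their joint counts in batch 2 tetramolters (exact 95% binomial interval 32.4% to 59.3%) and 40.6% in batch 2 trimolters (28.5% to 53.6%). In batch 1 the share was 57.2% in tetramolters (51.2% to 63.2%) and 56.3% in trimolters (41.2% to 70.5%). These intervals pool 3 libraries and cover counting error only. By library, AKH1 had 10 of 14, 4 of 20 and 12 of 23 counts of the pair in batch 2 tetramolters, and 12 of 34, 1 of 9 and 13 of 21 in batch 2 trimolters. Per length, AKH1 exceeded AKH2 in the 3 batch 1 tetramolter libraries, by 1.31 to 3.09 times in FPKM, and in both batch 1 trimolter libraries with FPKM, by 1.44 to 2.40 times. In batch 2 the FPKM ratio ranged from 0.359 to 3.59 in tetramolters and from 0.18 to 2.34 in trimolters. How reads shared by the neighbouring genes were assigned is not stated in the labels. Summed over both genes, the level was 1.2 ± 0.273 CPM in batch 2 tetramolters, 1.42 ± 0.823 CPM in batch 2 trimolters, 6.4 ± 0.662 CPM in batch 1 tetramolters and 1.06 ± 0.918 CPM in batch 1 trimolters, as the plot of summed hormone transcripts shows.

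The ligands of the receptor, the bombyxins, were likewise most abundant in batch 1 tetramolters. All 23 bombyxin genes with a symbol of the Bbx form had low counts, 4 had none in any library, and 2 could be tested. As the genes are similar in sequence and reads may be split between them, their sum is given with no test. It was 3.07, 3.17 and 2.96 CPM in batch 2 tetramolters, against 0.462, 1.85 and 3.78 CPM in batch 2 trimolters. In batch 1 the sum was 8.94, 9.77 and 7.85 CPM in tetramolters, against 3.03, 0.523 and 1.04 CPM in trimolters. The batch 1 tetramolters were above every other library. Their ranges were apart from batch 1 trimolters for 53.7% of tested genes, from batch 2 tetramolters for 71.5% and from batch 2 trimolters for 57.7%. Of the 19 genes with any count 14 were highest in that group, some on few counts (Bbx-a3 had 0, 1 and 1 there). The share of all genes highest in that group was not computed. The 2 genes that could be tested, Bbx-c2 and Bbx-a2, reached the filter's level in 0 and 1 libraries outside the batch 1 tetramolters. They entered the test only through the group where they were high, so their changes in batch 1, 2.43 for Bbx-c2 and 1.90 for Bbx-a2 on the log2 scale, are a description.

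**Figure D3:**
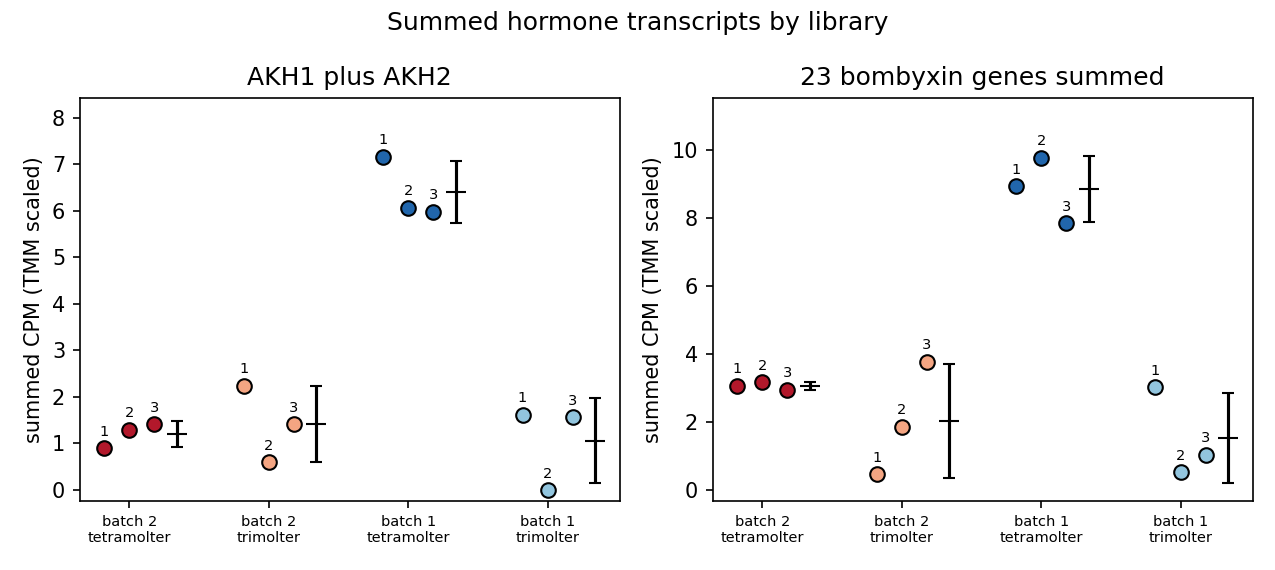
Summed level in CPM (vertical axes, linear) of AKH1 plus AKH2 and of the 23 bombyxin genes in each of the 12 libraries, numbered by replicate, with bars for the mean and SD of 3 libraries. In both panels the 3 batch 1 tetramolter libraries lie above the other 9.

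Across the whole list of insulin-like peptides and binding proteins, 4 of 26 genes could be tested. Only BmILP and IBP2 reached the filter's level without the batch 1 tetramolters. Neither was called in batch 2, and both were called higher in batch 1 tetramolters, where 22.7% of tested genes were. BmILP, an insulin-like peptide gene, averaged 46.4 ± 12.3 CPM in batch 2 tetramolters and 48.5 ± 17.8 CPM in batch 2 trimolters. It averaged 40 ± 4.52 CPM in batch 1 tetramolters and 16.8 ± 3.21 CPM in batch 1 trimolters (log2 fold change 1.25, SE 0.28, edgeR adjusted p = 0.00368). Trimolters of batch 2 exceeded those of batch 1 (1.53, SE 0.27, edgeR adjusted p = 0.00578; 0.0629 in a fit to these groups alone). IBP2, matched to the list by its symbol alone, averaged 25.2 ± 2.69 CPM in batch 1 tetramolters and 6.35 ± 2.32 CPM in batch 1 trimolters (1.99, SE 0.24, edgeR adjusted p = 0.000108), and in batch 2 its change was 0.54 (edgeR adjusted p = 0.106).

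Among 7 genes of the insulin and TOR pathway downstream of the receptor, 2 rose and 2 fell in batch 2 tetramolters, where 19.7% of tested genes rose and 18.3% fell. In batch 1 tetramolters 1 rose and 2 fell, where 22.7% of tested genes rose and 22.7% fell. The median log2 fold change was -0.07 in batch 2 and -0.01 in batch 1, against -0.01 and 0.01 over all tested genes. The genes that fell in batch 2 with InR were LOC100529235, listed with the synonym foxO, and Rheb, the small GTPase that activates TOR. The foxO gene was at 17.4, 19.7 and 22.4 CPM in batch 2 tetramolters, against 39.6, 36 and 44.2 CPM in batch 2 trimolters (-1.01, SE 0.13, edgeR adjusted p = 0.000269). Rheb averaged 2.11 ± 0.147 CPM in batch 2 tetramolters and 4.51 ± 1.21 CPM in batch 2 trimolters (-1.09, SE 0.28, edgeR adjusted p = 0.00957). In batch 1 neither passed, with 0.24 for foxO (edgeR adjusted p = 0.167, and 0.0314 without batch 1 trimolter 2) and 0.39 for Rheb (edgeR adjusted p = 0.239).

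Pi3k60, a regulatory subunit of PI3 kinase, and LOC100174852, listed with the synonym S6K, moved against InR in both batches. Pi3k60 averaged 22.9 ± 2.97 CPM in batch 2 tetramolters and 17.3 ± 0.737 CPM in batch 2 trimolters (0.41, SE 0.12, edgeR adjusted p = 0.0214). That call was lost when any batch 2 library but tetramolter 1 was left out (highest edgeR adjusted p = 0.0929). In batch 1 Pi3k60 averaged 13.4 ± 0.247 CPM in tetramolters and 22.2 ± 2.66 CPM in trimolters (-0.73, SE 0.12, edgeR adjusted p = 0.000713). The S6 kinase gene changed by 0.48 in batch 2 (SE 0.10, edgeR adjusted p = 0.00345) and -0.37 in batch 1 (SE 0.10, edgeR adjusted p = 0.0114). RpS6, which encodes the ribosomal protein that S6 kinase phosphorylates, was at -0.28 in batch 2 (edgeR adjusted p = 0.114) and rose in batch 1 tetramolters by 0.73 (SE 0.13, edgeR adjusted p = 0.00102). TOR1 and TOR2, the TOR kinase genes, passed in neither batch. Of the 7, 5 differed in their change between the batches, against 53.8% of tested genes, negative for foxO, Rheb and RpS6 and positive for Pi3k60 and S6K.

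**Figure D4:**
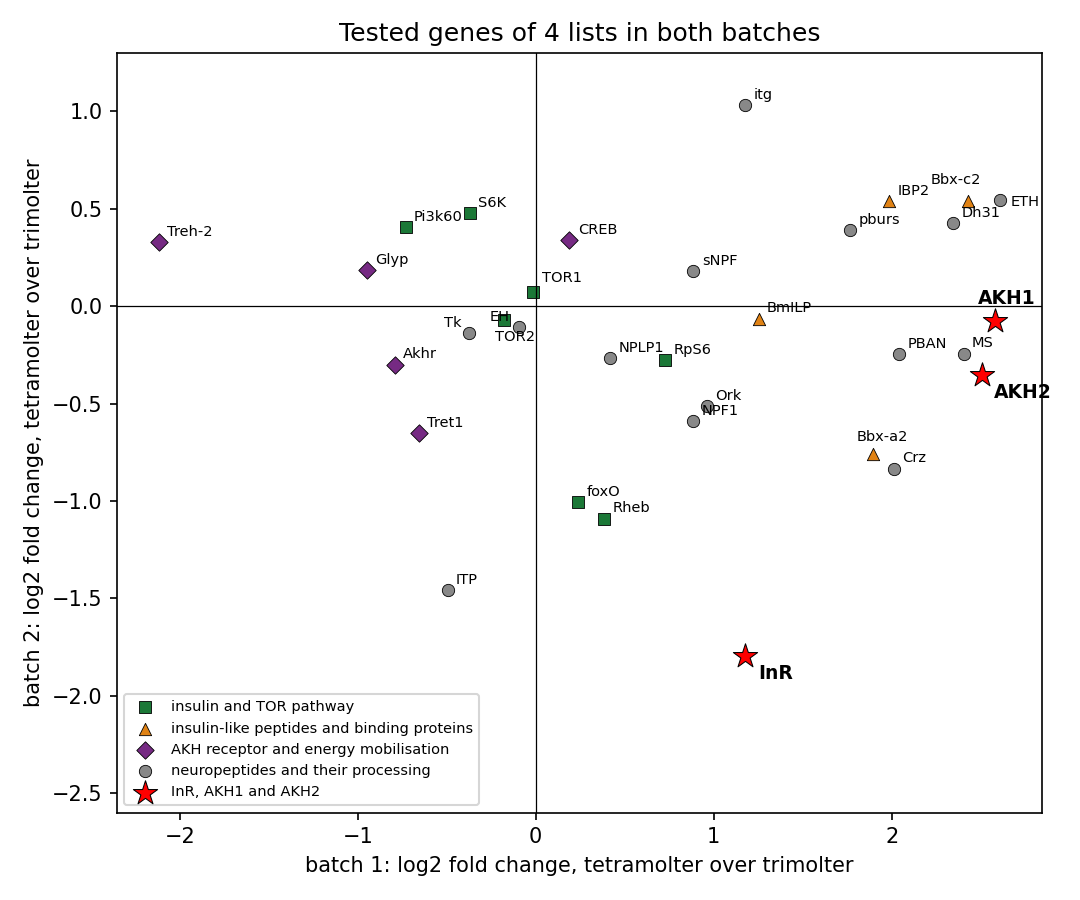
Log2 fold change of tetramolters over trimolters in batch 1 (horizontal axis) and batch 2 (vertical axis) for the tested genes of 4 fixed lists, with InR, AKH1 and AKH2 as stars. InR lies at -1.79 in batch 2 and 1.18 in batch 1, and AKH1 and AKH2 lie at -0.08 and -0.36 in batch 2 and at 2.58 and 2.51 in batch 1.

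The receptor of the adipokinetic hormones, Akhr, was lower in tetramolters of batch 1, where both hormone genes were higher. It was at 31.4, 18.4 and 30 CPM in batch 2 tetramolters, against 23.9, 41.9 and 32.5 CPM in batch 2 trimolters. In batch 1 it was at 22, 21.2 and 19.6 CPM in tetramolters, against 31.8, 49.1 and 27.8 CPM in trimolters. Groups overlapped in batch 2 and not in batch 1, which held for 53.7% of tested genes there, and batch 1 trimolter 2, the library without AKH counts, was the highest. Akhr fell in batch 1 tetramolters (-0.79, SE 0.26, edgeR adjusted p = 0.0276), a call that needed batch 1 trimolter 2 and each of the batch 1 tetramolters (highest edgeR adjusted p = 0.107 when 1 of them was left out). In batch 2 its change was -0.30 (edgeR adjusted p = 0.386), and the difference of the batches did not pass (0.49, edgeR adjusted p = 0.277). In FPKM, Akhr was at 9.56 to 16.3 in batch 2 tetramolters, 12.3 to 21.7 in batch 2 trimolters, 9.76 to 11 in batch 1 tetramolters, and 16.2 and 14.2 in batch 1 trimolters 1 and 3.

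Of the 5 tested genes in the list of the AKH receptor and energy mobilisation, which had 6 members, 1 rose and none fell in batch 2 tetramolters, where 19.7% of tested genes rose. In batch 1 tetramolters 3 fell and none rose, where 22.7% of tested genes fell. Median log2 fold changes were 0.18 in batch 2 and -0.79 in batch 1. The gene that rose in batch 2 was CREB, a transcription factor of the cAMP pathway (0.34, SE 0.10, edgeR adjusted p = 0.0176), and its call was lost when any batch 2 library but tetramolter 1 was left out, up to an edgeR adjusted p of 0.0808. The genes that fell in batch 1 with Akhr were Treh-2, a trehalase that splits the blood sugar trehalose, and Glyp, the glycogen phosphorylase that breaks down glycogen. Treh-2 averaged 36.4 ± 3.3 CPM in batch 1 tetramolters and 158 ± 53.3 CPM in batch 1 trimolters (-2.12, SE 0.20, edgeR adjusted p = 3.65e-05), and Glyp 87.6 ± 2.68 CPM in batch 1 tetramolters and 169 ± 67.2 CPM in batch 1 trimolters (-0.95, SE 0.23, edgeR adjusted p = 0.00607). In batch 2 their changes were 0.33 (edgeR adjusted p = 0.221) and 0.18 (edgeR adjusted p = 0.557). Tret1, the trehalose transporter gene, passed in neither batch, and NGR-A21 had too few counts.

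Other neuropeptide genes were described beside AKH as further peptide hormones, made in neurons or endocrine glands. Of 27 such genes 14 could be tested. Of these, NPLP1, NPF1 and Crz reached the filter's level in at most 2 libraries outside the batch 1 tetramolters, and the counts here are over the other 11. In batch 2 edgeR called none of the 11 in either direction, where it called 38% of tested genes. Of the 11, 1 had an unadjusted p under 0.05, DESeq2 called 1 and limma on FPKM 2. The absence of edgeR calls also depended on batch 1 libraries, which share the spread estimate. Among all 14 genes, 1 was called lower in batch 2 when batch 1 trimolter 1, 2 or 3 was left out. Without batch 1 trimolter 2, 1 was called higher as well. In batch 1, 5 of the 11 were higher in tetramolters and none lower, with 22.7% of tested genes called in each direction, and their median log2 fold change was 1.18. Calls with 1 library left out were counted only over all 14 genes, NPLP1, NPF1 and Crz included. Of these 14, 3 were called higher without batch 1 tetramolter 3 and 8 without batch 1 trimolter 1. The 5 were ETH, the ecdysis triggering hormone gene (2.61, SE 0.39, edgeR adjusted p = 0.000284), MS, a myosuppressin gene (2.40, SE 0.43, edgeR adjusted p = 0.000905), pburs, which encodes a bursicon subunit (1.77, SE 0.43, edgeR adjusted p = 0.00528), Dh31, a diuretic hormone gene (2.34, SE 0.74, edgeR adjusted p = 0.0166), and sNPF, short neuropeptide F (0.89, SE 0.26, edgeR adjusted p = 0.0178). The calls of Dh31 and sNPF were lost without batch 1 tetramolter 3, and that of sNPF also without batch 1 tetramolter 1 (edgeR adjusted p of up to 0.0662). PBAN and Crz, the genes of the pheromone biosynthesis activating peptide and of corazonin, had the AKH pattern of 0 counts in batch 1 trimolter 2. PBAN stood at 2.04 in batch 1 (edgeR adjusted p = 0.059). Crz entered the test only through the group where it was high, so its change in batch 1, 2.01, is a description. Between tetramolters, batch 2 was lower than batch 1 in 6 of the 11 and higher in none, where 29.7% of tested genes were called lower. Over all 14 genes the count was 8, and it was 4 without batch 2 tetramolter 3. These 2 counts include NPLP1, NPF1 and Crz, which entered the test only through the batch 1 tetramolters, and are a description. MS had the smallest p of these (-2.51, SE 0.43, edgeR adjusted p = 0.000352). EH, the eclosion hormone gene of brain neurosecretory cells, passed in neither batch and averaged 7.2 ± 0.951 CPM in batch 2 tetramolters, 7.75 ± 2.21 CPM in batch 2 trimolters, 9.86 ± 0.734 CPM in batch 1 tetramolters and 10.5 ± 1.35 CPM in batch 1 trimolters.

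Genes most like each member were ranked by Pearson correlation of log2 CPM over the 12 libraries, among genes with a symbol and a mean of at least 1 log2 CPM. The libraries fall into groups and share depth and scaling, so the values are descriptive. For InR the first 5 candidates were wh3, an ABC transporter gene (0.981), Gk (0.973), the cuticle protein gene CPR51 (0.972), the cytochrome P450 gene Cyp9g3 (0.966) and rptor (0.964). The gene rptor encodes the raptor subunit of TOR complex 1. The gene rptor averaged 78.5 ± 7.77 CPM in batch 2 tetramolters, 127 ± 12.9 CPM in batch 2 trimolters, 174 ± 3.07 CPM in batch 1 tetramolters and 124 ± 20.9 CPM in batch 1 trimolters. After centring within each batch, wh3 and Gk stayed among the first 5, at 0.987 and 0.973, and UGT10287B, SOCS5 and GSTe4 took the other places.

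The highest correlations were lower for the AKH genes, which had few counts, and the part of low counts in this was not tested. Genes with a mean under 1 log2 CPM, AKH1 and AKH2 among them, were not candidates and could not be listed. AKH1 correlated most with K5 (0.864), itg (0.854), a neuropeptide precursor gene, NGR-A19 (0.846), a neuropeptide receptor gene, Samui (0.83) and Y-f2 (0.82), and AKH2 with fmxg11J9 (0.893), Ndufa13 (0.871), UGT10100 (0.86), E75 (0.853) and serpin-4 (0.839). After centring within each batch, 4 of the 5 remained for AKH1 and 3 of the 5 for AKH2. Between the members, AKH1 and AKH2 correlated at 0.815, InR and AKH1 at 0.448 and InR and AKH2 at 0.468.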

How the data were processed

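The members and the gene lists were chosen with earlier results of these data known. Tools listed per the submitters' processing notes were DESeq2 1.38.3, StringTie 2.2.1, HISAT2 2.2.1 and Trimmomatic 0.39, while the labels' extract protocol names HISAT2 2.0.5. Genome build, annotation, counting program and strandedness: not given in the sources used here. Gene counts, deposited by the authors as whole numbers, carry no normalization as far as the values show. FPKM, deposited by the authors in a second table, is scaled by length and depth, and its 1 empty column was not used. Of 17583 rows 14945 matched the RefSeq gene table, used for names. A further 511 loci numbered by the authors, 0.21% to 0.264% of a library's counts, were left out.

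Counts were tested in R 4.3.3 with edgeR 4.0.16 (filterByExpr by group with a minimum count of 10, TMM, quasi-likelihood F-test, 2-sided), with a mean per group over all 12 libraries and 8 contrasts, and Benjamini-Hochberg adjustment over the 10721 tested genes of a contrast. Each standard error was computed from the weights of the fit and its moderated dispersion. The test was checked on simulated counts. Replicate pairs all differed by more than sampling noise (chi-square per degree of freedom of at least 3.27). Alternatives were RLE factors, DESeq2 1.42.0 without independent filtering, no filter and limma 3.58.1 on log2(FPKM + 1). Others were the replicate number as a block, the groups of a contrast alone, and leaving out each library. Contrasts that cross both batch and molting type were not recomputed under any of these.

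Named were the 3 members, list genes called in any contrast, up to 6 per list and contrast by smallest p, genes singled out after their values were seen (EH, TOR1, TOR2, NGR-A21, NPLP1, NPF1, Tk, Ork and nAChRa1), and the 5 genes most like each member. Lists matched symbols or synonyms, and matches through an unrelated synonym were removed.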

Additional observations from a re-analysis of the deposited data

Results flagged for a closer look

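The change of tetramolters against trimolters differed between batches, by the test of the difference itself (batch 2 minus batch 1, log2 scale, edgeR adjusted p under 0.05), for InR (-2.97) and AKH2 (-2.86). Among the list genes named, it differed for LOC100529235, listed as foxO (-1.25), LOC100174852, listed as S6K (0.85), Pi3k60 (1.14), RpS6 (-1.003) and Rheb (-1.48). The same held for BmILP (-1.32), IBP2 (-1.45), Glyp (1.13), Treh-2 (2.44), ETH (-2.06) and MS (-2.65). As 53.8% of tested genes passed this test, such a difference does not set these genes apart.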

How the results depend on the processing

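Of 489 values recomputed under settings other than leaving out a library, 458 kept direction and side of the threshold. AKH1 passed the difference of the batches in DESeq2 (-2.67) and in limma on FPKM (-1.57), where its change in batch 2 turned positive (0.0549) and where InR passed between trimolters (0.70). Calls between trimolters numbered 1664, against 2683 in limma on FPKM and 135 when the other groups were left out of the fit. The labels do not say whether replicate numbers pair the libraries, and a check of the values cannot exclude it. Deviations of same-numbered libraries correlated at -0.0424 to 0.114 (over 0.1 in 1 of 18 pairs). A library correlated best with its own number in 15 of 36 comparisons, each among 3 libraries. With a replicate block, the difference of the batches was -2.92 for AKH1 (passing) and -2.79 for AKH2 (not passing), with 5701 calls in that comparison against 5764.

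Without 1 library, changes of the members ranged as follows. In batch 2 they were -0.62 to 0.32 for AKH1 and -0.83 to 0.27 for AKH2, and in batch 1 2.02 to 3.11 for AKH1 and 1.96 to 3.09 for AKH2. The difference of the batches ranged from -3.19 to -2.10 for AKH1 and from -3.46 to -2.19 for AKH2, and the mean for InR from -0.44 to -0.23. Between trimolters the values were 0.23 to 0.66 for InR, -0.62 to 0.46 for AKH1 and 0.15 to 1.42 for AKH2, and between tetramolters -2.52 to -1.66 for AKH2. Calls numbered 909 to 2503 for the mean, against 1679, and 716 to 2723 between trimolters. InR kept its calls in batch 1, batch 2, their difference and between tetramolters without any 1 library. Low counts and the spread between libraries limit what can be said of AKH1, AKH2 and the bombyxins.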
